A study of Mus musculus with 6 samples.

Results

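The genes of oxidative phosphorylation that lie in the nucleus were compared between NKG2D+ and NKG2D- CD8 T cells. They were taken from the count files by symbol alone: genes beginning with Nduf followed by a, b, c, s or v, with Uqcr, with Cox4 to Cox8 or with Atp5, together with Sdha, Sdhb, Sdhc, Sdhd, Cyc1 and Cycs. This gave 92 of the 23284 genes in the files. By textbook knowledge 36 of them encode subunits of complex I, 4 of complex II, 9 of complex III, 18 of complex IV and 15 of complex V, 1 is cytochrome c and 9 are assembly or accessory genes that share a name stem with a subunit. RNA was sequenced from CD8 T cells sorted from lymph nodes of C3H/HeJ mice, 3 libraries with the surface phenotype CD3+CD8+CD44+CXCR3+NKG2D+ and 3 with CD3+CD8+CD44+CXCR3+NKG2D-. All carried CD44 and CXCR3, which mark antigen-experienced T cells, and no treatment or allele is given for either group. C3H/HeJ is an inbred strain in which alopecia areata can develop. The sources used here do not give the age of these mice or whether they were diseased. The series description names 3 mice.

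Oxidative phosphorylation takes electrons from NADH at complex I and from succinate at complex II, and passes them through complex III and cytochrome c to oxygen at complex IV. The proton gradient built on the way drives ATP synthesis by complex V. Some subunits of every complex except II are encoded by mitochondrial DNA, and all others come from the nucleus. Resting memory T cells are known to lean on this respiration, whereas activated T cells also run glycolysis at a high rate. The 13 mitochondrially encoded subunits were looked for by symbol and matched no gene in the files, so the nuclear share alone is described.

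Libraries held 63232698, 89184611 and 73989561 gene counts in NKG2D+ replicates 1, 2 and 3, and 41168816, 59235219 and 67315805 in NKG2D- replicates 1, 2 and 3. Klrk1, which encodes NKG2D, averaged 354 ± 49.7 CPM (gene counts scaled to a common library size, with TMM factors) in NKG2D+ and 35.9 ± 1.35 CPM in NKG2D- libraries (SD, n = 3 each), with a log2 fold change of 3.30 (SE 0.12, adjusted p = 0.000185 by edgeR). An exact permutation test of 3 against 3 libraries cannot go below its two-sided p of 0.1, which Klrk1 had. Of 7 CD8 T-cell markers 6 were in the files, and 0 of these 6 passed the test between groups. Their sum ran from 4098 to 5749 CPM in NKG2D+ and from 4214 to 4556 CPM in NKG2D- libraries, and NKG2D+ replicate 1 was highest. Summed markers of B cells (10 genes) ran from 389 to 597 CPM in NKG2D+ and from 109 to 280 CPM in NKG2D- libraries, and NKG2D+ replicate 1 was highest. Summed myeloid markers (11 of 13 listed genes were in the files) ran from 94.8 to 133 CPM in NKG2D+ and from 80.3 to 87.9 CPM in NKG2D- libraries. Most of that sum was Cst3, at means of 88.7 and 67.1 CPM. Summed plasma cell markers ran from 56.8 to 127 CPM in NKG2D+ and from 42.7 to 45.6 CPM in NKG2D- libraries. Most of that sum was Xbp1, at means of 54.8 and 33.9 CPM, and Prdm1, at 33.3 and 8.27 CPM, which edgeR called higher. In NKG2D+ and NKG2D- libraries Igj averaged 1.655 and 1.525 CPM, and Sdc1 0.467 and 0.280 CPM. Summed NK cell markers ran from 2.94 to 5.69 CPM in NKG2D+ and from 1.46 to 2.82 CPM in NKG2D- libraries. The part of such cells in the results was not tested. In sorted bulk RNA, fewer cells that use a gene and less RNA per cell cannot be told apart.

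The promoters of Ndufaf4, Cox7a2l and Cycs, the 3 members that DESeq2 called lower in the comparison below, are shown for reference, since respiratory genes are known to share binding sites for NRF1 (nuclear respiratory factor 1). Each line gives the 250 bases before the RefSeq start of the gene on assembly GRCm38.p6, 5′ to 3′ on the gene's strand, with matches to the NRF1 core GCGCANGCG on either strand in capitals.
Ndufaf4, chr4:24897833-24898082, plus strand: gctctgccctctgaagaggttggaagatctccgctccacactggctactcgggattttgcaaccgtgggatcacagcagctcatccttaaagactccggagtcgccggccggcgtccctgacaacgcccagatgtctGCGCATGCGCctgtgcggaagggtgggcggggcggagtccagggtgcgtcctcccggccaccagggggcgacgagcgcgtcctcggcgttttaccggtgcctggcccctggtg
Cox7a2l, chr17:83514334-83514583, minus strand: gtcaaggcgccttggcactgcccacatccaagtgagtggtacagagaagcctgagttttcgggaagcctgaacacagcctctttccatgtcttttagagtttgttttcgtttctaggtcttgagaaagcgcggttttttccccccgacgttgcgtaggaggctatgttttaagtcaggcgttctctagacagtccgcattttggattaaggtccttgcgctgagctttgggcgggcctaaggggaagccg
Cycs, chr6:50566570-50566819, minus strand: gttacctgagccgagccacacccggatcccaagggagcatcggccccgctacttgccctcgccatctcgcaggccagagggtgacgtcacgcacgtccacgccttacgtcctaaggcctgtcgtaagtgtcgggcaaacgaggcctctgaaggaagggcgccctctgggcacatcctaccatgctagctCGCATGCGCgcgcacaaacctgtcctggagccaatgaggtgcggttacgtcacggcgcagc
Cycs held 1 match and Ndufaf4 2 overlapping matches, 1 on each strand, because the core is nearly its own reverse complement. Cox7a2l held none in these letters.

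Of the 92 members, 75 had an entry among the RefSeq promoters, which run from 250 bases before to 50 after the start. The NRF1 core was found on either strand in 22 of these 75 genes (29.3%), against 7.03% of all 27025 genes with a promoter and 9.63% of the 17492 protein-coding ones. The ETS core CCGGAAG, the site of GABP, was found in 17 of 75 (22.7%), against 9.93% of all genes and 12.9% of protein-coding ones. The YY1 motif AAGATGGCG was found in 8 of 75 (10.7%), against 1.64% of all and 2.14% of protein-coding genes. The ERR element TCAAGGTCA was found in 2 of 75 (2.67%), Atp5g3 and Sdhd, against 0.466% of all and 0.377% of protein-coding genes. Each motif was searched apart, so a promoter could hold several. These are matches of letters and were given no test.

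The comparison asked whether genes of respiration differed between the populations. Nuclear oxidative phosphorylation genes stood at close to equal levels in NKG2D+ and NKG2D- cells. Of 92 members 86 had enough counts to be tested, and by edgeR's quasi-likelihood test with Benjamini-Hochberg adjustment 0 were higher and 0 lower at an adjusted p under 0.05. Over all 12951 genes tested, 1.65% were called higher and 0.363% lower, 261 genes in all. That count ran from 8 without NKG2D- replicate 3 to 1312 without NKG2D+ replicate 2. DESeq2 called 0 of 86 members higher and 3 of 86 lower (Cox7a2l, Ndufaf4 and Cycs). Over all 12951 genes it called 1442 in either direction and 441 lower (3.41% of genes tested). The share of members called lower was thus near that of all genes. The limma-voom fit called 0 members. At an unadjusted p under 0.05 by edgeR there were 5 members (5.81%), against 21.1% of all genes. The members' median log2 fold change was -0.07, with quartiles of -0.12 and 0.00, beside a median of -0.01 over all genes tested. With a mean of at least 20 CPM the medians were -0.075 for members and -0.03 for all genes. The members' log2 fold change ran from -0.79 for Cox6b2 to 0.36 for Cox7a1, both below 2 CPM.

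The bounds on these differences were narrow. The 95% interval of the fold change lay wholly within 1.5-fold of equality for 81 of 86 members (94.2%), against 56.9% of all genes. Among genes with a mean of at least 20 CPM it did so for 75 of 76 members, against 82.2% of genes at that level. The 5 members with wider intervals were Ndufs5, Cox6b2, Cox7a1, Ndufaf2 and Ndufaf4, of which the first 3 also passed 2-fold. These intervals stand for 1 gene each and were not widened for the number of genes. The spread between libraries of 1 group was small: the median coefficient of variation of the members was 6.68% in NKG2D+ and 4.44% in NKG2D- libraries, beside 11.9% and 8.10% over all genes. This comparison was not matched for level, and 76 of 86 members but 7045 of 12951 genes had a mean of at least 20 CPM.

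Within that narrow range the members leaned to lower values in NKG2D+ cells. The log2 fold change was negative for 63 of 86 members (73.3%), against 52.8% of all genes. With at least 20 CPM it was negative for 60 of 76 members (78.95%), against 58.5% of all genes at that level. Every NKG2D+ library lay below every NKG2D- library for 15 members (17.4%) and above for 0, where 14.1% and 15.1% of all genes did so. Among the 76 members with at least 20 CPM 14 lay below (18.4%) and 0 above, against 17.5% and 11.9% of all genes at that level. The share of members lying below is thus near that of other genes, while the share lying above is smaller. In same-numbered pairs of libraries 37 members (43%) were lower in NKG2D+ cells in all 3 pairs and 5 (5.81%) higher in all 3, against 29.1% and 25.9% of all genes. With at least 20 CPM these shares were 44.7% and 2.63% of members, against 34.5% and 23% of all genes at that level. With CPM scaled by library size alone the members' median was 0.02 and that of all genes 0.07, so the sign of the median turned while its distance to other genes was -0.05 under both scalings. That distance depended on the libraries: it was -0.02 without NKG2D+ replicate 3, -0.04 without NKG2D- replicate 1 and -0.08 without NKG2D+ replicate 1.

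**Figure D1:**
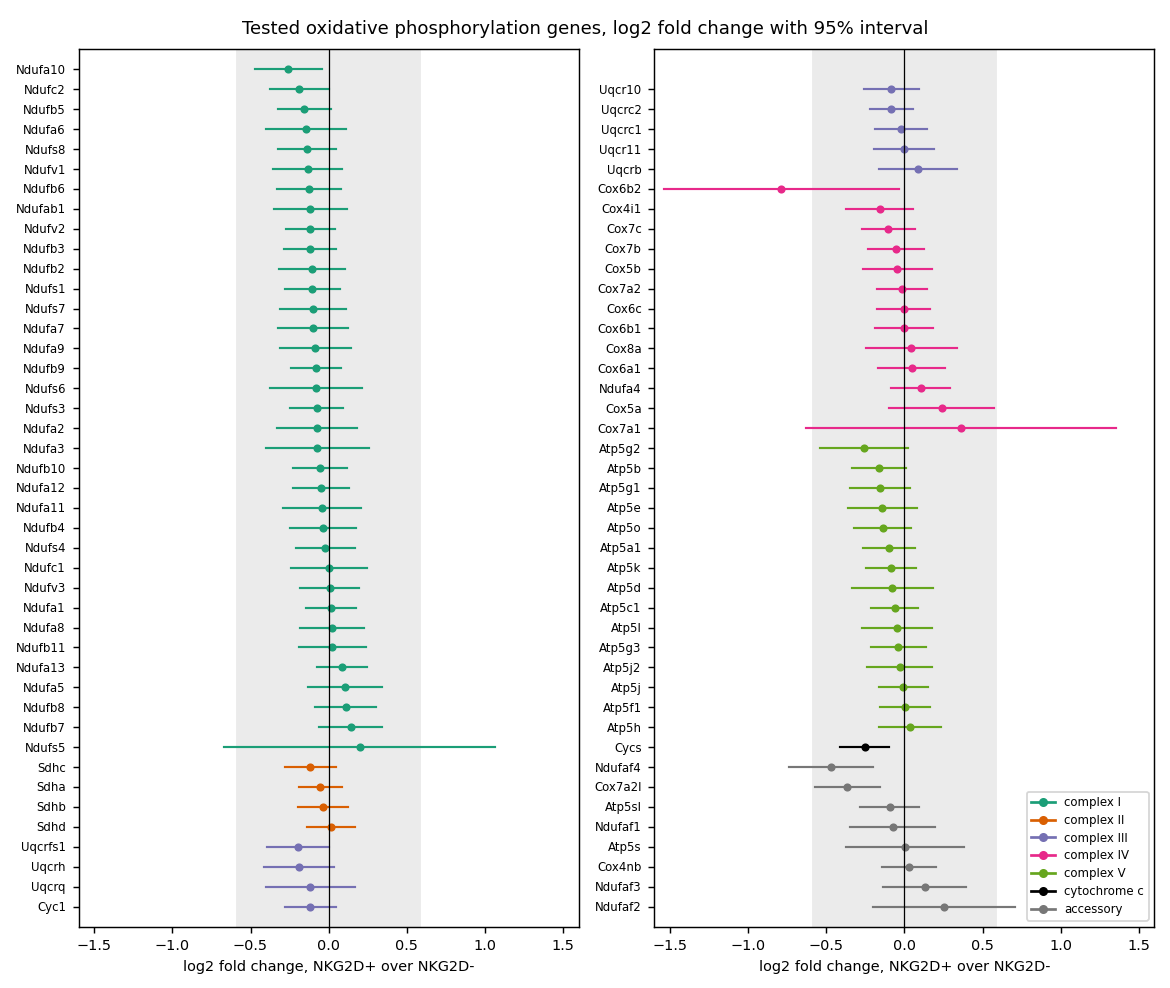
Log2 fold change of NKG2D+ over NKG2D- (points) with its 95% interval (lines) for tested members, coloured by complex and sorted within each, with 1 member not shown. The grey band marks 1.5-fold either way, and the intervals that leave it belong to Ndufs5, Cox6b2, Cox7a1, Ndufaf2 and Ndufaf4.

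Complex I, the NADH dehydrogenase, had all 36 of its genes tested, with 10 positive and 26 negative log2 fold changes and a median of -0.08. Its subunits summed to 1513, 1538 and 1404 CPM in NKG2D+ replicates 1, 2 and 3, against 1612, 1535 and 1523 CPM in NKG2D- replicates 1, 2 and 3. The sums overlapped between groups, with a ratio of 0.954. The log2 ratio of -0.07 was 0.01 with library size alone and -0.03 without NKG2D+ replicate 3.

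The accessory subunit Ndufa10 had the smallest p of complex I. It stood at 68.8, 83.0 and 70.7 CPM in NKG2D+ replicates 1, 2 and 3, against 93.0, 88.4 and 84.7 CPM in NKG2D- replicates. All NKG2D+ libraries lay below all NKG2D- libraries, with replicate 2 of NKG2D+ close to them. The log2 fold change was -0.26 (SE 0.09, 95% interval -0.47 to -0.05, adjusted p = 0.169 by edgeR). Without NKG2D+ replicate 2 it was -0.35 with an adjusted p of 0.0411, and Ndufa10 and Cox7a2l were then the 2 members called lower, where 3.1% of all genes were.

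Ndufc2, a subunit of the membrane arm, followed at 24.8, 25.1 and 22.7 CPM in NKG2D+ against 28.1, 28.3 and 26.4 CPM in NKG2D- replicates (log2 fold change -0.19, SE 0.08, adjusted p = 0.238 by edgeR). On the positive side Ndufb7, also of the membrane arm, stood at 50.9, 48.5 and 44.6 CPM in NKG2D+ against 46.7, 43.3 and 40.6 CPM in NKG2D- replicates. The groups overlapped, and the log2 fold change was 0.14 (SE 0.08, adjusted p = 0.399 by edgeR). Ndufb8 had a log2 fold change of 0.11 (95% interval -0.09 to 0.30).

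Ndufs5 stood apart by its level. It had 38, 57 and 56 counts in NKG2D+ and 25, 45 and 20 counts in NKG2D- replicates 1, 2 and 3. Per kilobase of its principal GENCODE M21 transcript it averaged 1.16 CPM over the 6 libraries, the lowest of the complex I subunits, where the next, Ndufab1, had 15.8. A stretch of 60.8% of that transcript matched an annotated pseudogene at 98% identity or more over at least 100 bases, and reads aligned to several places are in a row of their own in the files, outside the gene counts. Such matches covered part of 14 members, among them all of Atp5g2, 99.8% of Atp5h, 75.7% of Ndufs3 and 69% of Atp5g1, so levels of these genes are uncertain. The median log2 fold change was -0.05 for these 14 and -0.07 for the other 72 tested members. Reads aligned to several places were 19.71% to 20.96% of the sum of all rows in NKG2D+ and 21.56% to 26.19% in NKG2D- libraries, and their part in the members' values was not tested.

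Complex II, succinate dehydrogenase, has 4 subunits, all encoded in the nucleus and shared with the citric acid cycle. They summed to 414, 417 and 407 CPM in NKG2D+ replicates 1, 2 and 3, against 428, 419 and 433 CPM in NKG2D- replicates. The NKG2D+ sums lay below the NKG2D- sums by a ratio of 0.967, and with library size alone the log2 ratio was 0.03 in place of -0.05. Sdha, the catalytic flavoprotein, stood at 227, 225 and 233 CPM in NKG2D+ against 236, 230 and 244 CPM in NKG2D- replicates. Its groups overlapped, with a log2 fold change of -0.05 (SE 0.06, 95% interval -0.19 to 0.09, adjusted p = 0.67 by edgeR). Sdhc, a membrane anchor, had the smallest p of the complex at a log2 fold change of -0.12 (SE 0.07, adjusted p = 0.384). Sdhb, the iron-sulfur subunit, stood at -0.03 and Sdhd, the other anchor, at 0.02 on the log2 scale.

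Complex III, the cytochrome bc1 complex, summed to 663, 688 and 622 CPM in NKG2D+ and 741, 686 and 687 CPM in NKG2D- replicates 1, 2 and 3. The sums overlapped through replicate 2 of NKG2D+, with a ratio of 0.933. Uqcrfs1, the Rieske iron-sulfur protein, stood at 70.3, 76.3 and 64.0 CPM in NKG2D+ against 84.6, 80.1 and 76.9 CPM in NKG2D- replicates. The groups lay apart by under 1 CPM, and the log2 fold change was -0.20 (SE 0.08, 95% interval -0.40 to 0.00, adjusted p = 0.24 by edgeR). For Uqcrh, the hinge protein that contacts cytochrome c1, the log2 value was -0.19 (adjusted p = 0.314 by edgeR). Uqcrb, a quinone-binding subunit, was the single member of the complex with a positive value, 0.09 (95% interval -0.16 to 0.34). The cytochrome c1 gene Cyc1 stood at -0.12 and the core proteins Uqcrc1 and Uqcrc2 at -0.02 and -0.08 on the log2 scale.

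Cytochrome c, the soluble carrier between complexes III and IV that also triggers apoptosis when released, had steady levels within each group. Cycs stood at 60.9, 61.2 and 64.9 CPM in NKG2D+ replicates 1, 2 and 3, against 73.4, 71.8 and 77.9 CPM in NKG2D- replicates. The groups did not overlap, and the difference was larger than the spread within either. Cycs averaged 62.3 ± 2.26 CPM in NKG2D+ and 74.4 ± 3.18 CPM in NKG2D- libraries (SD, n = 3 each), a fold of 0.838 (95% interval 0.752 to 0.935). The log2 fold change was -0.25 (SE 0.07), with an adjusted p of 0.0994 by edgeR, 0.0217 by DESeq2 and 0.133 by limma-voom, so the call depended on the test. The somatic gene Cycs has pseudogene matches over 10.2% of its transcript.

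Complex IV is cytochrome c oxidase, which passes electrons to oxygen. Its genes summed to 1042, 965 and 882 CPM in NKG2D+ and 1035, 938 and 941 CPM in NKG2D- replicates 1, 2 and 3, a ratio of 0.992. The sums overlapped, and the spread within NKG2D+ (SD 80.2 CPM) was larger than the difference of the means. Without NKG2D+ replicate 1 the log2 ratio was -0.07, without NKG2D+ replicate 3 it was 0.05 and without NKG2D- replicate 1 it was 0.04, in place of -0.01. With library size alone it was 0.07, and summed by name stem alone, which takes in Cox7a2l and Cox4nb and leaves out Ndufa4, it was -0.10, so its sign and size rested on single libraries, on the scaling and on the genes summed.

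Cox5a, a matrix-side subunit, stood at 97.7, 71.7 and 69.2 CPM in NKG2D+ against 71.2, 61.8 and 69.2 CPM in NKG2D- replicates. NKG2D+ replicate 1 was high, replicate 2 lay 0.45 CPM above the highest NKG2D- library and replicate 3 lay among the NKG2D- values. NKG2D+ replicate 1 also had the highest summed markers of CD8 T cells, B cells, myeloid cells and plasma cells, and a link to Cox5a was not tested. The log2 fold change of 0.24 (SE 0.14, adjusted p = 0.394 by edgeR) was 0.07 without NKG2D+ replicate 1. Ndufa4, first described in complex I and now counted as a subunit of complex IV, differed by 0.11 on the log2 scale (adjusted p = 0.503 by edgeR). Cox4i1, the regulatory subunit that binds adenine nucleotides, stood at 210, 220 and 189 CPM in NKG2D+ against 252, 227 and 212 CPM in NKG2D- replicates, with overlapping groups (log2 fold change -0.16, SE 0.09, adjusted p = 0.375 by edgeR). Cox7c stood at -0.10 on the log2 scale.

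Subunits of complex IV that come in tissue isoforms were represented by their general forms in both populations. Cox4i1 averaged 293 CPM per kilobase of principal transcript over the 6 libraries against 0.0806 for Cox4i2, the lung isoform. Cox6a1 averaged 195 and Cox8a 222 CPM per kilobase, against 0.209 for Cox6a2 and 0.0233 for Cox8b, the heart and muscle isoforms. Cox7a2 averaged 63.0 CPM per kilobase and Cox7a1, another muscle isoform, 0.497. Cox6b1 averaged 128 CPM per kilobase and Cox6b2, known from testis, 1.70. Cox7b2 and Cox8c, likewise known from testis, had 0 counts in all 6 libraries, which allows at most 0.0335 to 0.0456 CPM in NKG2D+ and 0.0468 to 0.0756 CPM in NKG2D- libraries by counting error.

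The general forms had overlapping groups in the 2 populations. Cox6a1 had a log2 fold change of 0.05, Cox8a of 0.04, Cox6b1 of 0.00, Cox7a2 of -0.01 and Cox7b of -0.05, each with a 95% interval within 1.5-fold. Among the rare isoforms Cox6b2 had 27, 48 and 61 counts in NKG2D+ and 46, 49 and 66 in NKG2D- replicates 1, 2 and 3. Scaled to depth these were 0.411, 0.536 and 0.790 CPM in NKG2D+ against 1.16, 0.828 and 1.03 CPM in NKG2D- libraries, which did not overlap (log2 fold change -0.79, SE 0.32, adjusted p = 0.221 by edgeR). Cox6a2 had 4, 7 and 5 counts in NKG2D+ and 8, 8 and 20 in NKG2D- replicates, too few to be tested with all 6 libraries. Scaled to depth its values were 0.0608, 0.0782 and 0.0648 CPM in NKG2D+ against 0.2015, 0.135 and 0.312 CPM in NKG2D- libraries, which did not overlap. Cox4i2 had 4, 4 and 7 counts in NKG2D+ and 1, 4 and 4 in NKG2D- replicates. Cox8b had at most 3 counts in any library, and Ndufa4l2, a relative of Ndufa4 known to be induced by hypoxia, had 4 in NKG2D+ replicate 3 and 0 elsewhere.

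Complex V, the ATP synthase, summed to 2491, 2585 and 2350 CPM in NKG2D+ and 2796, 2615 and 2586 CPM in NKG2D- replicates 1, 2 and 3. NKG2D+ sums lay below NKG2D- sums, but replicate 2 of NKG2D+ and replicate 3 of NKG2D- were nearly level, and the ratio was 0.929. With library size alone the log2 ratio was -0.03 in place of -0.11. Of its 15 genes 13 had a negative log2 fold change. Atp5b, the catalytic beta subunit, stood at 608, 677 and 616 CPM in NKG2D+ against 722.5, 701 and 702 CPM in NKG2D- replicates. All NKG2D+ libraries lay below all NKG2D- libraries, at a log2 fold change of -0.16 (SE 0.07, 95% interval -0.33 to 0.01, adjusted p = 0.268 by edgeR). Its partner Atp5a1, the alpha subunit, stood at -0.10, and the 5 genes of the F1 part ran from -0.16 to -0.06.

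The membrane ring of complex V is built from subunit c, which 3 genes encode with the same mature protein. Atp5g2 stood at 147, 167 and 136 CPM in NKG2D+ against 207.5, 172 and 160 CPM in NKG2D- replicates, with overlapping groups (log2 fold change -0.26, SE 0.12, adjusted p = 0.271 by edgeR). NKG2D- replicate 1 was the high value, and without it the log2 fold change was -0.15. The other genes of subunit c, Atp5g1 and Atp5g3, were at -0.16 and -0.04 on the log2 scale (edgeR adjusted p = 0.322 and 0.815). The largest positive values of the complex were 0.04 for Atp5h and 0.00 for Atp5f1, subunits of the peripheral stalk.

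**Figure D2:**
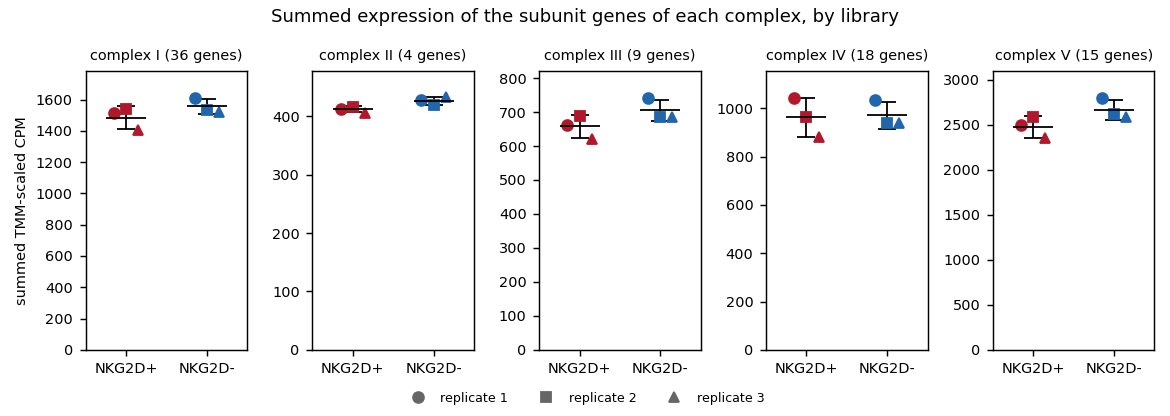
Summed TMM-scaled CPM of the subunit genes of each complex on axes that start at 0, with NKG2D+ libraries in red and NKG2D- libraries in blue, marked by replicate. Bars are the mean and SD of 3 libraries. Ratios of the means run from 0.929 for complex V to 0.992 for complex IV.

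Of the 9 assembly and accessory genes 8 were tested, and these held the members with the 2 smallest p-values. Ndufaf4, an assembly factor of complex I, stood at 26.1, 31.4 and 32.9 CPM in NKG2D+ replicates 1, 2 and 3, against 39.4, 39.3 and 46.4 CPM in NKG2D- replicates. The groups lay clearly apart. Ndufaf4 averaged 30.1 ± 3.57 CPM in NKG2D+ and 41.7 ± 4.08 CPM in NKG2D- libraries (SD, n = 3 each), a fold of 0.722 (95% interval 0.598 to 0.872). The log2 fold change was -0.47 (SE 0.12), with an adjusted p of 0.0871 by edgeR, 0.0088 by DESeq2 and 0.124 by limma-voom.

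Cox7a2l, a relative of Cox7a2 that joins complexes III and IV into supercomplexes, stood at 242.5, 290 and 240 CPM in NKG2D+ against 338, 327 and 330 CPM in NKG2D- replicates. NKG2D- libraries were tightly grouped above all NKG2D+ libraries, of which replicate 2 was the highest. Cox7a2l averaged 257 ± 28.2 CPM in NKG2D+ and 332 ± 5.53 CPM in NKG2D- libraries (SD, n = 3 each), a fold of 0.776 (95% interval 0.672 to 0.897). The log2 fold change was -0.37 (SE 0.09), with an adjusted p of 0.0865 by edgeR, 0.00638 by DESeq2 and 0.118 by limma-voom. Without NKG2D+ replicate 2 it was -0.46, and edgeR then called it at an adjusted p of 0.0122. The signs for Ndufaf4, Cox7a2l and Cycs were negative under all 15 alternative settings. Their groups did not overlap, so leaving out libraries could not turn the sign, and this is no further support. The sign of Cox5a, whose groups overlapped, also held under all 15 settings.

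The other accessory genes were nearer to equality. Ndufaf3, also an assembly factor of complex I, had a log2 fold change of 0.13, Ndufaf2 of 0.25 (95% interval -0.20 to 0.71) and Ndufaf1 of -0.08. Atp5s stood at 0.00 and Atp5sl at -0.09. Cox4nb, which despite its name belongs to the membrane protein insertion complex of the endoplasmic reticulum and not to cytochrome oxidase, stood at 0.03.

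**Figure D3:**
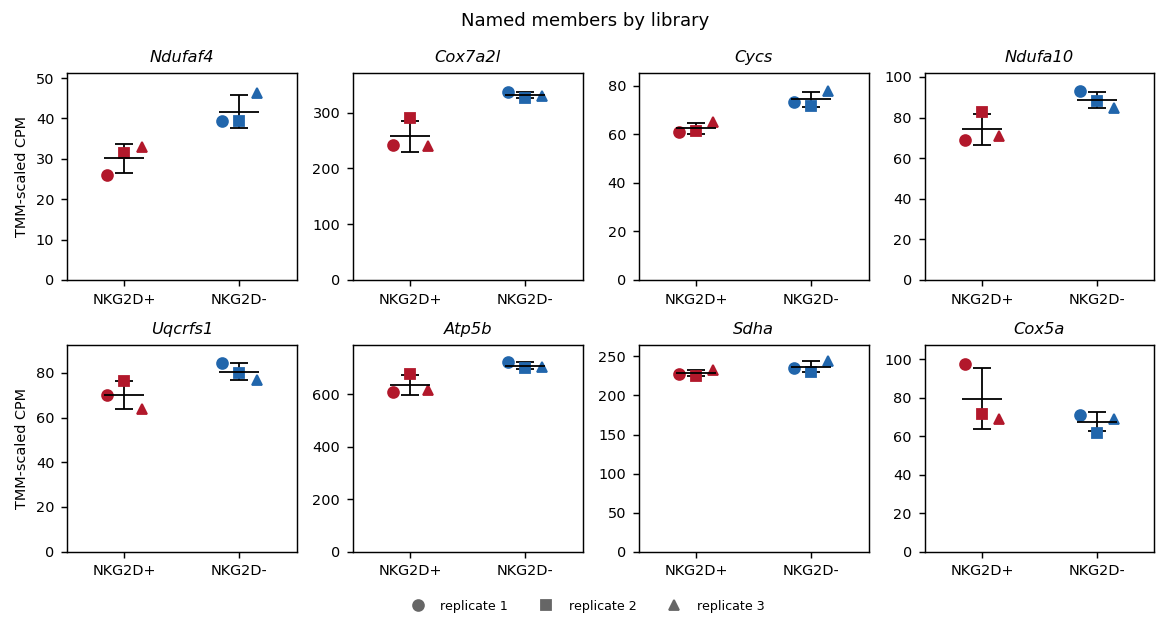
TMM-scaled CPM of 8 members by library, NKG2D+ in red and NKG2D- in blue, marked by replicate, with the mean and SD of 3 libraries and axes that start at 0. Ndufaf4, Cox7a2l, Cycs and Ndufa10 show groups that do not overlap, Sdha shows near-equal levels, and Cox5a shows 1 high NKG2D+ library at 97.7 CPM.

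The members' values shared a pattern across libraries that did not follow the groups alone. Taking each member's log2 CPM against its mean over the 6 libraries, the median member lay at 0.01, 0.00 and -0.10 in NKG2D+ replicates 1, 2 and 3, against 0.09, 0.00 and 0.00 in NKG2D- replicates. NKG2D+ replicate 3 was thus the lowest library and NKG2D- replicate 1 the highest, and the remaining 4 lay within 0.02 of each other. NKG2D+ replicate 3 was the lowest library in each of complexes I to V, at medians between -0.12 and -0.09. NKG2D- replicate 1 was the highest in complexes I, III and V, at 0.07, 0.11 and 0.11. Complex IV had NKG2D+ replicate 1 as its highest library, at 0.10, and complex II had highest medians of 0.03 in NKG2D+ replicate 2 and NKG2D- replicate 3. Cycs and the accessory genes did not have their lowest value in NKG2D+ replicate 3. As a share of all gene counts the 92 members made up 0.682%, 0.671% and 0.638% in NKG2D+ and 0.692%, 0.673% and 0.641% in NKG2D- replicates 1, 2 and 3, so same-numbered libraries were close to each other.

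Among other genes of mitochondrial and cellular energy metabolism, grouped in 6 lists, 0 passed edgeR's test in either direction. DESeq2 called 1 gene higher in each of the glycolysis and fatty acid lists, 1 lower in each of the citric acid cycle and import lists and 2 lower among regulators. It called 1442 of all 12951 genes, with 3.41% of all genes called lower. Of 30 assembly factors listed outside the name rule, 28 were in the files and 27 were tested, with a median log2 fold change of -0.11. At an unadjusted p under 0.05 by edgeR there were 3 (11.1%), against 21.1% of all genes. The smallest p was that of Lrpprc, which stabilises mitochondrial mRNA, at -0.31 (SE 0.11, adjusted p = 0.178). Of 19 regulators of mitochondrial gene expression, all tested, the median was -0.14. By edgeR 4 (21.1%) had an unadjusted p under 0.05, the same share as over all genes (21.1%). These 4 were the transcription factor of mitochondrial DNA Tfb2m at -0.26, the helicase gene Peo1 at -0.38, Myc at -0.62 (SE 0.22, adjusted p = 0.174) and Tfam, which packages mitochondrial DNA, at -0.22. Of the 20 tested genes of pyruvate entry and the citric acid cycle the median was -0.07, and Idh2, the mitochondrial NADP-dependent isocitrate dehydrogenase, had the smallest p at -0.43 (SE 0.12, adjusted p = 0.113).

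Of 18 carriers, channels and import genes the median was -0.09, and the smallest p was that of the import receptor gene Tomm20, with a mean of 132 ± 13.2 CPM in NKG2D+ libraries against 168 ± 4.48 CPM in NKG2D- libraries (SD, n = 3 each, log2 fold change -0.35, SE 0.08, adjusted p = 0.0851 by edgeR). Of the 19 tested glycolysis genes the median was 0.00, with 10 positive and 9 negative values. By edgeR 3 had an unadjusted p under 0.05. These were the lactate exporter gene Slc16a3 at 0.87 (adjusted p = 0.132), the glucose transporter gene Slc2a3 at 0.34 (adjusted p = 0.182) and Pgk1 at -0.14 (adjusted p = 0.227). For Slc16a3 and Slc2a3 NKG2D+ replicate 1 was the highest library, at 6.48 and 150 CPM. Slc16a1 stood at -0.37 (adjusted p = 0.257 by edgeR). Of 14 genes of fatty acid oxidation the median was 0.01, with the acyl-CoA dehydrogenase gene Acadl at 0.82 (SE 0.23, adjusted p = 0.112). Beside these, 7 of 25 cell-cycle genes were called higher in NKG2D+ cells and 0 lower, against 1.65% and 0.363% of all genes, with a median of 0.57. That count was 3 with the replicate number as a block, 14 under DESeq2, 11 without NKG2D+ replicate 2, 0 without NKG2D+ replicate 3, and 1, 1 and 0 without NKG2D- replicates 1, 2 and 3. The members' own median was -0.07 in the same fit. No test of the difference between lists was made.

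**Figure D4:**
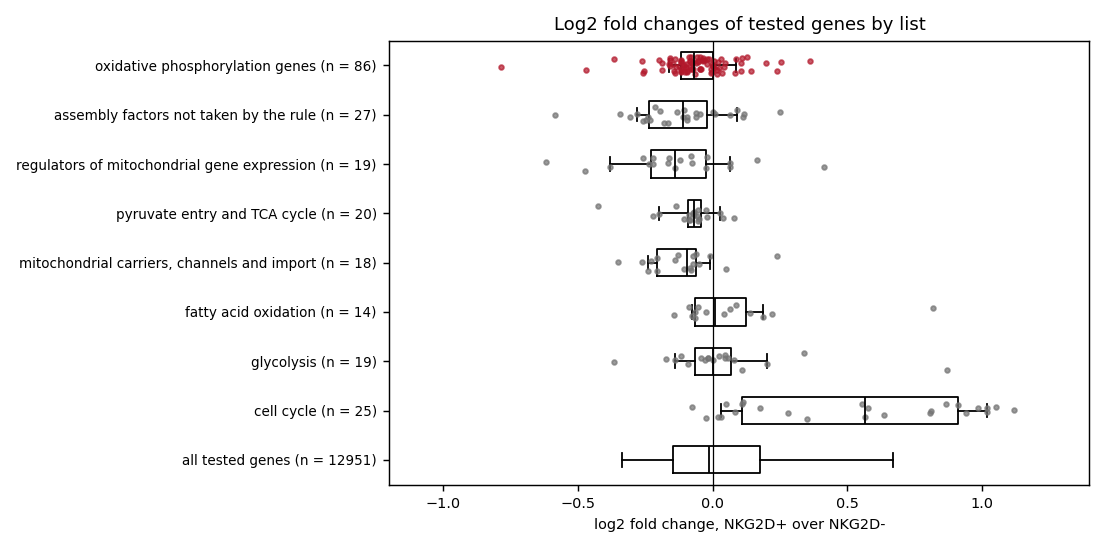
Log2 fold changes of NKG2D+ over NKG2D- for tested genes of each list, with 1 point per gene, a box from the first to the third quartile, a line at the median and whiskers from the tenth to the ninetieth percentile. Points of the 86 oxidative phosphorylation genes are red, and all 12951 tested genes have a box alone. The medians of the mitochondrial lists lie between -0.14 and 0.01, and that of the cell-cycle list at 0.57.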

How the data were processed

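Total RNA of the sorted cells was column-purified, treated with DNase and sequenced from TruSeq libraries, per the labels' protocols. The authors deposited a file of raw counts by gene symbol for each library. The submitters' processing notes name CASAVA 1.8.2, TopHat2 2.0.4 and the mm9 build. The sources used here do not name the counter, gene annotation or strand setting, so reads of overlapping and antisense genes cannot be told apart. In each file 5 rows name no gene, and neither depth nor tests use them: reads outside genes made up 14.0% to 15.9% of the sum of all rows, ambiguous reads 0.715% to 0.836% and reads aligned to several places 19.7% to 26.2%, and the rows for low quality and unaligned reads hold 0.

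Counts were tested with edgeR 4.0.16 in R 4.3.3 (robust quasi-likelihood F test, TMM scaling, filterByExpr defaults of minimum count 10, minimum total 15, group as the only term), with Benjamini-Hochberg adjustment over all 12951 genes tested and calls at an adjusted p under 0.05. CPM used TMM-scaled library sizes. The 95% intervals came from the same fit and cover 1 gene each. The test was checked on simulated counts. The limits from 3 counts cover counting error only, since no molecular identifiers are named in the labels.

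Alternatives were DESeq2 1.42.0, limma-voom (limma 3.58.1), DESeq2's size factors, library size alone, no filter, the replicate number as a block, and each library or each number left out. Same-numbered libraries may come from the same mouse, which is an inference. The series description names 3 mice, and deviations from the group means correlated at 0.25, 0.20 and 0.38 across genes for replicate numbers 1, 2 and 3. Libraries of different numbers correlated at -0.21 to 0.02. The main fit, its intervals and its p-values do not use such pairs.

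Members and lists were chosen with earlier results of these data known. Genes named were, in each complex, those with the 2 largest positive and 2 largest negative log2 fold changes among genes of at least 5 CPM, the one with the smallest p, tissue isoforms and the catalytic genes Sdha, Uqcrfs1, Cycs and Atp5b. Others named were chosen after their values were seen, to show a subunit's part. Transcript lengths and pseudogene matches (BLAST 2.17.0) used GENCODE M21, and promoters RefSeq on GRCm38.p6, while the counts were made on mm9. The values of 1 member are not reported here by name, and it stays in the counts and sums.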

Additional observations from a re-analysis of the deposited data

How the results depend on the processing

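The count of members called higher was 0 under all alternatives, and the count called lower was 0 except for 3 under DESeq2 and 2 without NKG2D+ replicate 2 (0 to 2 over single libraries left out). The calls concern Cox7a2l (log2 fold change -0.36 under DESeq2 and -0.46 without that library), Ndufaf4 (-0.47 under DESeq2), Cycs (-0.25 under DESeq2) and Ndufa10 (-0.35 without that library). Of all genes tested, 3.41% were called lower under DESeq2 and 3.1% without that library. Over all genes the count of 261 calls was 1442 under DESeq2, 83 under limma-voom and 8 to 1312 with 1 library left out. It was 543 without NKG2D+ replicate 1, 1312 without NKG2D+ replicate 2, 15 without NKG2D+ replicate 3, and 21, 13 and 8 without NKG2D- replicates 1, 2 and 3. Without both libraries of number 3 it was 0, with 971 genes at an unadjusted p under 0.05 by edgeR. The cause was not tested, though these fits use fewer samples.

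With the replicate number as a block, 68 genes were called in all and 0 members in either direction, and the members' median was -0.07. The block pairs the libraries by mouse only if the numbers stand for mice. No member's call changed under the block.

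With library size alone the members' median was 0.0161, and the log2 ratios of the sums were 0.0138 for complex I, 0.0337 for complex II, -0.0178 for complex III, 0.0707 for complex IV and -0.0251 for complex V. Over single libraries left out, the members' median ran from -0.09 to -0.03. With 3 libraries a group, differences both under and above 1.5-fold could go uncalled. Below about 5 CPM the intervals of Ndufs5, Cox6b2, Cox7a1 and Ndufaf2 reached past 1.5-fold. Well above that level, Cox7a2l at a fold of 0.776, Ndufaf4 at 0.722 and Cycs at 0.838 were not called by edgeR either. The 0 calls among members therefore do not exclude such differences.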
